A study of Mus musculus with 6 samples.

Results

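Epithin, also called matriptase and encoded by St14, was examined together with its 2 inhibitors, a partner protease and the receptors of proteolytic signalling. The genes were St14, the Kunitz-type inhibitors Spint1 (HAI-1) and Spint2 (HAI-2), the membrane-anchored protease prostasin (Prss8), and the protease-activated receptors PAR-1 (F2r) and PAR-2 (F2rl1). They were chosen by symbol, and each of the 6 had a single locus among the 25001 in every library. RNA came from 427.1.86 thymoma cells (427 cells), a mouse tumor line that makes epithin by itself. All 6 libraries are this line, with 1 library for each condition.

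Epithin is a type II transmembrane serine protease of epithelial cells. It is made as an inactive zymogen, and its protease domain can be shed from the cell surface. HAI-1 and HAI-2 are membrane proteins that bind and block the active protease, and HAI-1 also accompanies epithin on its way to the surface. Matriptase and prostasin can activate each other, and PAR-2 is a G protein-coupled receptor that is switched on when such trypsin-like proteases cut its extracellular end. PMA is a phorbol ester that activates protein kinase C and induces shedding of epithin.

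The library labelled CONT was made from 427 cells carrying the empty pSUPER vector and treated with DMSO, and the library labelled CONT_PMA from the same cells treated with 1 µM PMA for 2 h after 2 h without serum. The libraries labelled KD and KD_PMA were made from cells with a knockdown of SPPL2b, a protease that cuts inside the membrane, given DMSO or PMA in the same way. Per the labels the knockdown used siRNA, whereas the study's methods describe a stably expressed shRNA and a single-cell clone. The libraries labelled KD_GFP and KD_GFP_N55 were made from knockdown cells transfected with a GFP vector alone, or with GFP plus a Flag-tagged CMV vector construct of the first 55 residues of epithin, its intracellular domain (EICD). Both were sorted for GFP on the day after transfection. A library of the transfected cells therefore differs from the library labelled KD in transfection, sorting and culture at once, and these cannot be told apart. In the plots the knockdown cells are written SP2bKD.

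The files hold FPKM, that is fragments per kilobase of transcript, scaled to the depth of the library. Estimated depth ranged from 25900000 to 30400000 fragments. The targeted gene Sppl2b had an FPKM of 9.90 in the library labelled CONT, 6.86 in CONT_PMA, 13.4 in KD, 9.37 in KD_PMA, 11.4 in KD_GFP and 13.2 in KD_GFP_N55. The libraries labelled KD thus held 1.35-fold (DMSO) and 1.37-fold (PMA) the Sppl2b level of the matching 427 libraries. The deposited locus overlaps Lsm7 on the opposite strand over 2204 bases. The FPKM of these single libraries did not show the knockdown that the labels give. The study itself tested its knockdown clones for SPPL2b mRNA by real-time PCR and reports less PMA-induced EICD in them. Any difference between the lines below is a difference between libraries with these labels.

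The epithelial identity of the line was checked with markers. Of 10 epithelial markers, 8 reached 1 FPKM in some library, and the summed level of the list ran from 6349 to 15095. Krt19 and Cldn7 stayed under 1 FPKM in each library. Krt5 and Krt14, keratins of basal epithelium, led the list with 3851 to 10705 and 1355 to 3820 FPKM (Krt5 as a newly assembled locus). Of the 10 T lymphocyte markers, Cd3e, Cd4 and Thy1 were at 0 in every library, and the summed level of the list was 2.60 to 4.08. Most of that sum was Rag1, seen as a newly assembled locus at 1.73 to 3.50 FPKM, and Trac reached 1.04. The other 8 markers of the list stayed under 1 FPKM in each library. The sums of the macrophage, fibroblast and endothelial lists were at most 12.2, 0.594 and 0.859. Of the macrophage markers, Csf1r (2.37 to 7.35 FPKM), Cd14 (2.56 to 5.78) and Cd68 (1.25 to 2.58) were above 1 FPKM in every library. The other 3 stayed under 1.

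The coding sequence that the EICD construct shares with St14 is shown first, because reads from the construct and from the gene cannot be separated within it. It was read from GENCODE M21 on GRCm38 as the first 165 coding bases of St14, on the minus strand of chromosome 9. The lower-case part lies in exon 1 (chr9:31131546-31131626, 81 bases) and the capitals mark the part in exon 2 (chr9:31108647-31108730, 84 bases).
St14, first 55 codons: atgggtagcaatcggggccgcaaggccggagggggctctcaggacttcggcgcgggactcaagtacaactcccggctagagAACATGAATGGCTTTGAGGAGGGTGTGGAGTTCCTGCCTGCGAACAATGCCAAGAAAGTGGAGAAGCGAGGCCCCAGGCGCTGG
This stretch makes up 5.06% of the 3259-base transcript of St14.

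St14 (ENSMUSG00000031995, chromosome 9, 31089402 to 31131853, minus strand) stood at 85.6 FPKM in the library labelled CONT, 105.4 in CONT_PMA, 81.8 in KD, 100.4 in KD_PMA, 69.6 in KD_GFP and 614.5 in KD_GFP_N55. St14 RNA was therefore high in the 5 libraries without the construct. Its level lay above 89.3% to 91.9% of named loci that reached 1 FPKM in the libraries labelled CONT to KD_PMA, and above 86.3% in KD_GFP. The library with the EICD construct stood apart from the other 5, which spanned 69.6 to 105.4. Among those 5 the order was CONT_PMA, KD_PMA, CONT, KD and KD_GFP. With 1 library a condition there is no spread between replicates against which neighbours in such an order could be set.

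Spint1 (ENSMUSG00000027315, chromosome 2, 119237362 to 119249527, plus strand), which encodes HAI-1, had an FPKM of 68.9, 84.9, 67.3, 88.5, 61.4 and 62.4 in the libraries labelled CONT, CONT_PMA, KD, KD_PMA, KD_GFP and KD_GFP_N55. The libraries with PMA were the highest and those of transfected cells the lowest. Spint2 (ENSMUSG00000074227, chromosome 7, 29256126 to 29282379, minus strand), which encodes HAI-2, had an FPKM of 138.1, 149.9, 134.5, 129.3, 123.0 and 132.2 in the same order. It was the more abundant inhibitor in each library, and its values spanned a narrower range than those of Spint1.

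Prss8 (ENSMUSG00000030800, chromosome 7, 127922190 to 127930106, minus strand) had an FPKM of 11.3, 8.45, 15.9, 9.18, 10.0 and 8.72 in that order. Prostasin was the least abundant of the 5 expressed members, and its highest value was in the library labelled KD. F2rl1 (ENSMUSG00000021678, chromosome 13, 95511732 to 95525240, minus strand) had an FPKM of 87.2, 249.1, 80.4, 262.1, 68.6 and 53.2. The libraries with PMA stood far above the other 4, and the EICD library was the lowest.

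F2r (ENSMUSG00000048376, chromosome 13, 95601804 to 95618459, minus strand) was listed at 0 in 5 libraries and at 0.0242 in the library labelled KD_PMA. That value corresponds to an estimated 2.46 fragments, while 3 fragments would give an FPKM of up to 0.0347. No fold was therefore formed for F2r. Its neighbour F2rl1 lies 76.6 kb away and reached 262.1 FPKM in the same library. The other receptors of the family, F2rl2 (PAR-3) and F2rl3 (PAR-4), were at most at 0.0201 and 0.101 FPKM, so PAR-2 was the receptor gene of this family detected above 1 FPKM.

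**Figure D1:**
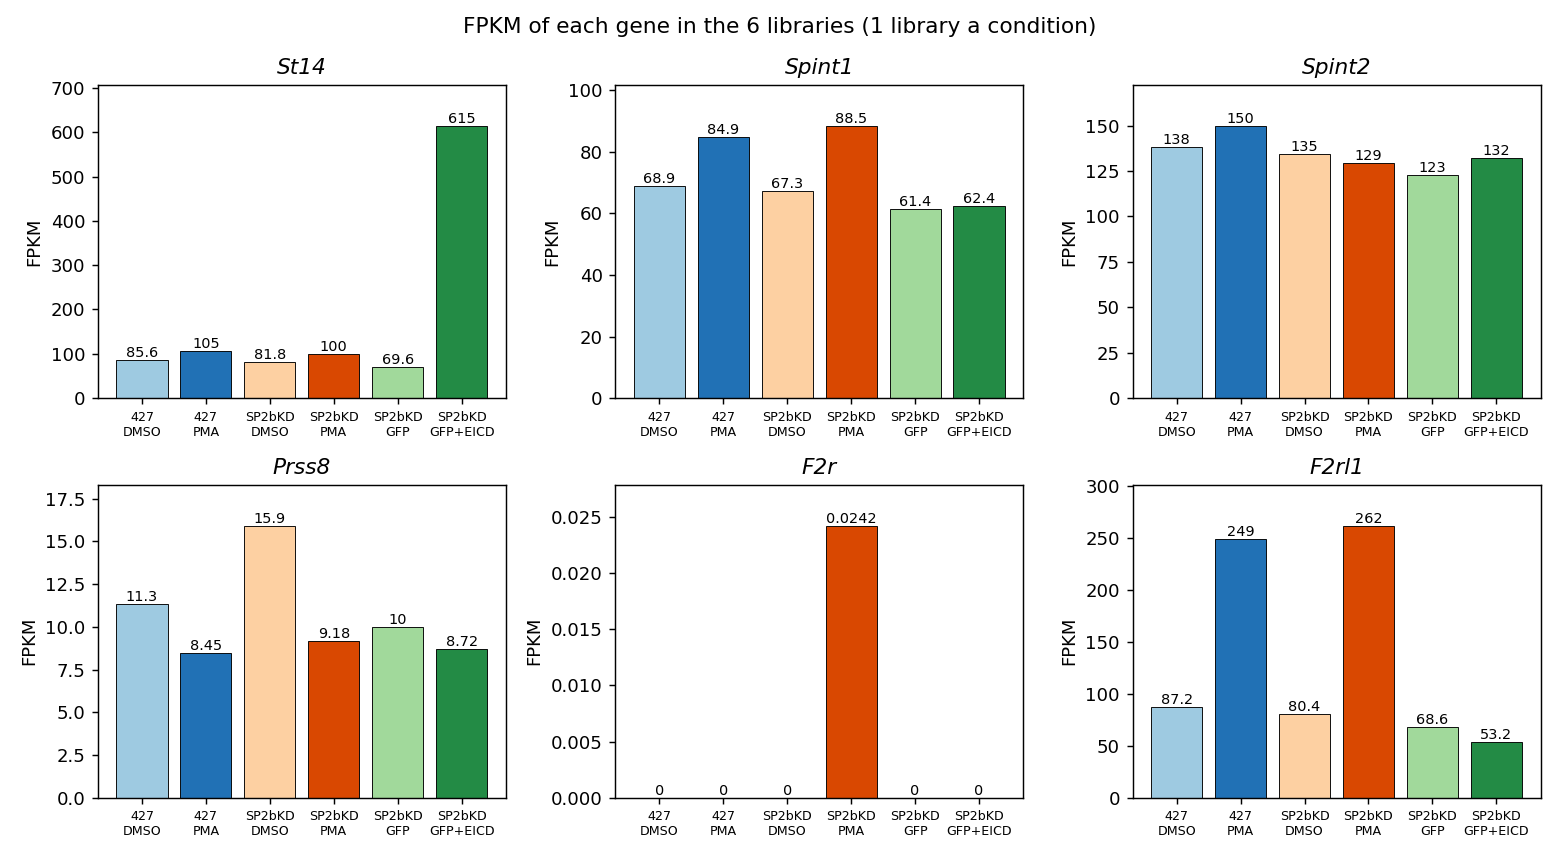
FPKM of each of the 6 genes (bars, 1 library each; each panel has its own linear axis from 0) in the 6 libraries. F2rl1 is at 249.1 and 262.1 with PMA and at 53.2 to 87.2 otherwise, St14 is at 614.5 with the EICD construct, and F2r has a value above 0 in 1 library.

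The first question was how the epithin system responded to PMA. F2rl1 was the member that passed 2-fold. It was 2.86-fold its DMSO level in 427 cells (log2 ratio 1.51, 95% counting interval 1.47 to 1.55) and 3.26-fold in the libraries labelled KD (1.71, 1.66 to 1.75). The estimated fragments behind it went from 6807 to 20097 and from 5731 to 21861. These intervals cover counting error only, since each condition has 1 library, and no p-value was computed. With PMA, 3.91% of 10643 loci in 427 cells exceeded 2-fold upward and 4.67% downward. In the libraries labelled KD these shares were 3.51% and 5.69% of 10624 loci. The F2rl1 ratio exceeded that of 98.0% of loci in 427 cells and 98.7% in the libraries labelled KD. The 2 comparisons share no library. In bulk RNA, fewer cells with a transcript and less of it per cell cannot be told apart.

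St14 itself was 1.23-fold its DMSO level in 427 cells (log2 ratio 0.30, interval 0.26 to 0.34) and also 1.23-fold in the libraries labelled KD (0.30, 0.25 to 0.34). Spint1 was at 1.23-fold (0.30, 0.25 to 0.36) and 1.31-fold (0.39, 0.34 to 0.45). Epithin and HAI-1 RNA thus had like ratios in 427 cells. Spint2 was at 1.09-fold in 427 cells (0.12, 0.07 to 0.17) and at 0.961-fold in the libraries labelled KD (-0.06, -0.11 to -0.0012), so that its ratio lay on either side of 0.

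Prss8 was the member with a lower level under PMA in both lines. Its log2 ratio was -0.42 in 427 cells (interval -0.60 to -0.25) and -0.79 in the libraries labelled KD (-0.95 to -0.63), that is 0.747-fold and 0.577-fold the DMSO level. Prostasin passed 2-fold in neither. Over the 5 expressed members the median log2 ratio was 0.30 in both lines, where the median of all loci was -0.12 in 427 cells and -0.15 in the libraries labelled KD. When the libraries were instead scaled to a common median ratio, the ratio of Spint2 in the libraries labelled KD became 0.09, and the share of higher loci among those past 2-fold went from 45.6% to 58.3% in 427 cells and from 38.1% to 55.7% in the libraries labelled KD.

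**Figure D2:**
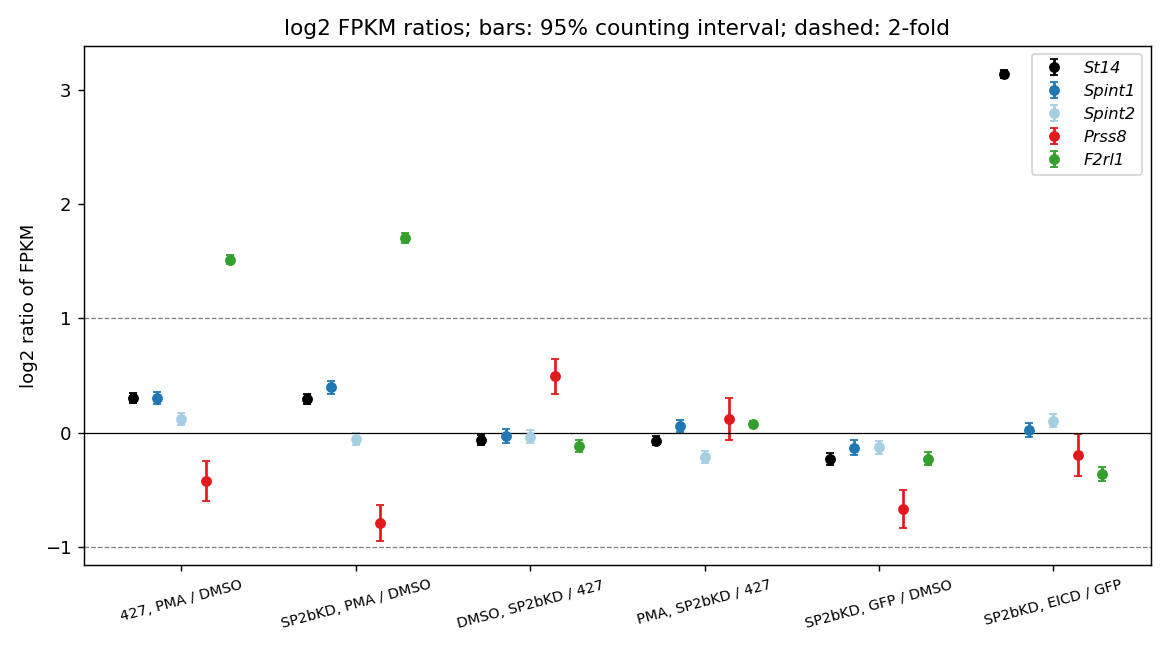
log2 ratio of FPKM (vertical axis) of the 5 expressed members in the 6 comparisons, with bars for the 95% counting interval of 1 library against 1 and dashed lines at 2-fold. F2rl1 at 1.51 and 1.71 with PMA and St14 at 3.14 with EICD lie outside the dashed lines, and the other points lie inside.

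The response of the 2 lines to PMA was then set side by side. The log2 ratio in the libraries labelled KD minus that in 427 cells was -0.0047 for St14, 0.09 for Spint1, -0.17 for Spint2, -0.37 for Prss8 and 0.19 for F2rl1. Of 10422 loci measured in both lines, 98.4% had a larger absolute difference than St14, 67.3% than Spint1, 44.4% than Spint2, 17.6% than Prss8 and 41.0% than F2rl1. With 1 library each these differences have no replicate error and were not tested.

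**Figure D3:**
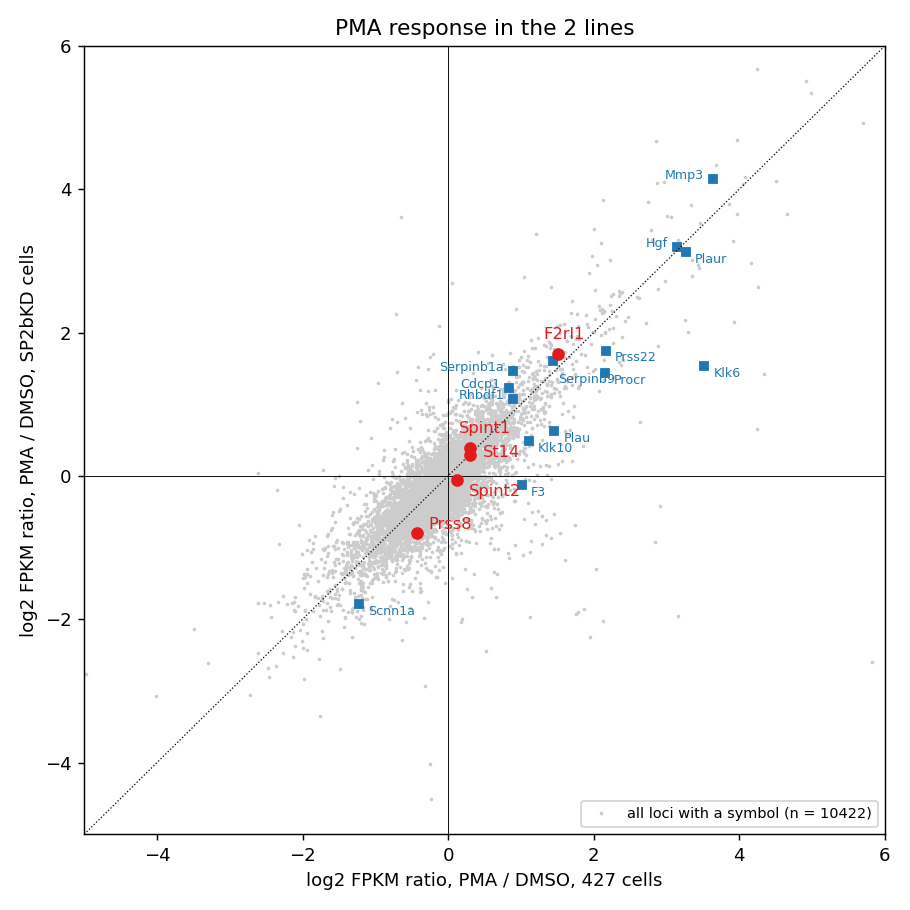
log2 FPKM ratio of PMA over DMSO in 427 cells (horizontal) and in SP2bKD cells (vertical) for 10422 loci with a symbol (grey), the members (red circles) and the named pathway genes past 2-fold with PMA and measured in both lines (blue squares). Dsg2 is not among the squares. 16 loci fall outside the axes, and F2rl1 lies close to the dotted line of equal response at 1.51 and 1.71.

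Around the members, several secreted and membrane-anchored trypsin-like proteases were higher with PMA. This list and those below were chosen with earlier results of these data known, so their counts are not a test. Over all loci, 3.91% were higher and 4.67% lower with PMA in 427 cells, and 3.51% and 5.69% in the libraries labelled KD. In 427 cells 5 of 10 measured genes passed 2-fold upward and none downward, with a median log2 ratio of 0.98 over the list. Prss22 (tryptase epsilon) went from 14.1 to 63.4 FPKM and Plau, the urokinase plasminogen activator, from 28.5 to 78.6. Klk6 and Klk10, kallikrein-related peptidases, went from 0.192 to 2.31 and from 3.26 to 7.06, and Prss27 from 0.579 to 1.50. In the libraries labelled KD 2 of 9 measured genes passed, Prss22 (17.3 to 58.1) and Klk6 (0.767 to 2.25), with a median of 0.49. Prss27 stood at 0.299 and 0.966 there, under the minimum of 1 FPKM, and was not counted. Plau stood at 24.8 and 38.2 and Klk10 at 8.03 and 11.3, and neither passed. The difference between the lines in these counts was not tested. Of the 17 other type II transmembrane serine proteases listed, 16 stayed under an FPKM of 1 in all libraries, and Tmprss11e reached 1.30 in the library labelled CONT_PMA.

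Among genes reported as substrates of matriptase or prostasin, or as their receptors, 5 of 13 measured genes passed 2-fold upward and 1 downward with PMA in 427 cells. Plau, already counted among the proteases above, is also 1 of these 5. Plaur, the urokinase receptor, went from 24.1 to 231.9 FPKM in 427 cells and from 13.3 to 116.5 in the libraries labelled KD. Hgf, the ligand of the Met receptor whose precursor matriptase can cleave, went from 0.409 to 3.68 and from 0.318 to 2.99. Mmp3 (stromelysin 1) went from 0.157 to 2.08 and from 0.0662 to 1.34, and Mst1r, the receptor of macrophage-stimulating protein, from 0.590 to 2.29 in 427 cells. Mst1r stood at 0.199 and 0.609 in the libraries labelled KD, under the minimum. In the libraries labelled KD 4 of 12 measured genes were higher and 2 lower. Cdcp1, a surface glycoprotein cleaved by matriptase, was among the former with 36.8 and 85.7, and Scnn1a, the alpha subunit of the epithelial sodium channel, among the latter with 2.61 and 0.746. Dsg2, outside the 5 largest ratios named by rule, was the other lower gene with 14.3 and 6.80. In 427 cells Cdcp1 stood at 52.7 and 94.4, Scnn1a at 1.75 and 0.744, and Dsg2 at 12.8 and 7.15. The list had a median log2 ratio of 0.82 in 427 cells and 0.52 in the libraries labelled KD.

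Of the other Kunitz and serpin inhibitors, 1 of 8 measured genes passed 2-fold with PMA in 427 cells and 2 of 8 in the libraries labelled KD, all higher. Serpinb9, an inhibitor of granzyme B, went from 16.3 to 44.5 and from 14.8 to 44.9 FPKM, and Serpinb1a from 3.50 to 9.65 in the libraries labelled KD. In 427 cells Serpinb1a stood at 3.64 and 6.77 and did not pass. The median log2 ratio of this list was 0.03 in 427 cells and -0.02 in the libraries labelled KD.

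Of the other PAR pathway genes, 2 of 10 passed in 427 cells and 1 of 10 in the libraries labelled KD. Procr, the endothelial protein C receptor, went from 24.6 to 109.8 and from 16.9 to 45.7 FPKM. F3 (tissue factor) went from 21.7 to 43.7 in 427 cells and stood at 17.8 and 16.3 in the libraries labelled KD. Of the genes of shedding and intramembrane cleavage, 0 of 8 passed in 427 cells and 1 of 8 in the libraries labelled KD, Rhbdf1 (iRhom1, a partner of ADAM17), which went from 40.2 to 84.4. In 427 cells Rhbdf1 went from 50.6 to 94.0, just under 2-fold. The medians were 0.02 and -0.0043 for the PAR pathway list and -0.01 and -0.10 for the shedding list.

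**Figure D4:**
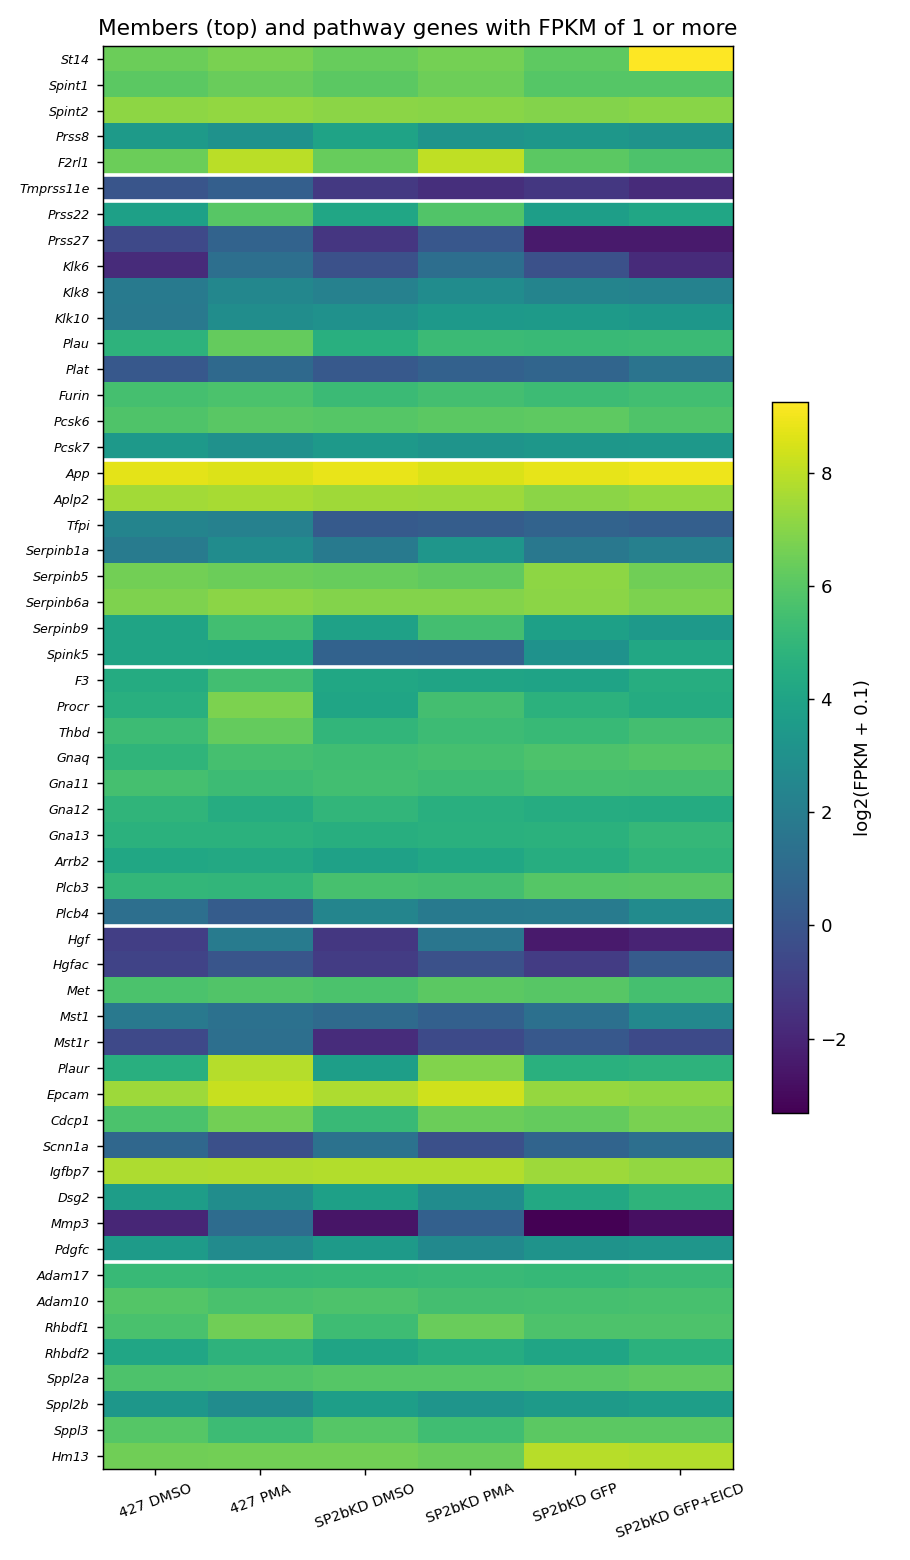
log2(FPKM + 0.1) (color) of the 5 expressed members and of pathway genes that reached 1 FPKM in any library (rows, 55 rows, white lines between lists) in the 6 libraries (columns). St14 with EICD and F2rl1 and Plaur with PMA are brighter than in the other libraries of their rows.

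The second question was whether the system differed between 427 cells and the libraries labelled KD. None of the 5 tested members passed 2-fold with DMSO, where 3.11% of 10706 loci were higher and 2.76% lower. The count was also 0 of 5 with PMA, where 2.19% of 10518 loci were higher and 2.75% lower. The log2 ratios with DMSO and with PMA were -0.07 and -0.07 for St14, -0.03 and 0.06 for Spint1, -0.04 and -0.21 for Spint2, 0.49 and 0.12 for Prss8, and -0.12 and 0.07 for F2rl1. Prss8 with DMSO had the widest of these differences (15.9 against 11.3 FPKM, interval 0.34 to 0.65). These comparisons use the same libraries as the PMA comparisons and are not independent of them.

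Some pathway genes did pass 2-fold between the lines. Spink5 (LEKTI), an epidermal inhibitor of kallikreins, stood at 16.2 and 15.5 FPKM in 427 cells and at 1.45 and 1.40 in the libraries labelled KD and KD_PMA. This locus, 1 of 2 with the symbol Spink5, was 11.1-fold (DMSO) and 11.0-fold (PMA) lower there. Tfpi, a Kunitz inhibitor of the tissue factor pathway, stood at 4.95 and 4.46 against 1.06 and 1.20. Klk10 (8.03 against 3.26) was higher with DMSO, and Plcb4, a phospholipase C downstream of Gq, was higher with DMSO (5.26 against 2.35) and with PMA (3.50 against 1.19). With PMA, F3 (16.3 against 43.7), Procr (45.7 against 109.8), Thbd (39.3 against 78.8), Plau (38.2 against 78.6), Mst1r (0.609 against 2.29) and Tmprss11e (0.220 against 1.30) were lower in the library labelled KD_PMA. In all, 3 of 10 measured PAR pathway genes were lower and 1 higher with PMA.

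The transfected and sorted cells without EICD were compared with the library labelled KD. None of the 5 tested members passed 2-fold, where 3.56% of 10687 loci were higher and 4.14% lower. All 5 had a log2 ratio below 0, with -0.23 for St14, -0.13 for Spint1, -0.13 for Spint2, -0.67 for Prss8 and -0.23 for F2rl1. The median of all loci was -0.08, and 40.9% of loci had a ratio above 0. Scaled to a common median ratio, Spint1 was at -0.029 and Spint2 at -0.027. The summed level of the epithelial markers was 15095 in the library labelled KD_GFP and 6825 in the library labelled KD. Krt5 (10705 against 4246 FPKM) and Krt14 (3820 against 1785) make up nearly all of this sum. Of the other markers, Krt8 (142.8 against 310.8), Krt18 (49.5 against 89.6) and Epcam (152.7 against 208.7) were lower in the library labelled KD_GFP. Higher there were Trp63 (62.7 against 30.5, past 2-fold), Cdh1 (147.4 against 140.7) and Foxn1 (15.2 against 13.2). The part of these shifts in the members' values was not tested. Spink5 (1.45 to 8.46 FPKM), Cdcp1 (36.8 to 79.0) and Hm13, the signal peptide peptidase, seen here only as a newly assembled locus (97.3 to 244.2), passed 2-fold upward in the library labelled KD_GFP. Scaling to a common median ratio took the share of higher loci among those past 2-fold from 46.2% to 57.4% here.

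The last comparison set EICD plus GFP against GFP alone. St14 was 8.82-fold higher (614.5 against 69.6 FPKM, log2 ratio 3.14, interval 3.10 to 3.18), and 13 of 10682 loci had a larger ratio. This interval takes the full 3259-base transcript as the length, which need not apply to reads from the construct, so it is not a counting error of the construct's transcripts. The construct carries the St14 sequence printed above, so the construct's transcripts and the gene's own cannot be told apart in this FPKM, and the St14 value of this library is not a level of full-length epithin. Over all loci 3.58% of 10682 passed 2-fold upward and 0.506% downward, with a median log2 ratio of 0.07.

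The other members stayed within 2-fold when EICD was added. Spint1 was at 62.4 against 61.4 FPKM (log2 ratio 0.02, interval -0.04 to 0.09) and Spint2 at 132.2 against 123.0 (0.10, 0.05 to 0.16). Prss8 was at 8.72 against 10.0 (-0.20, -0.38 to -0.0084), and F2rl1 at 53.2 against 68.6 (-0.36, -0.43 to -0.30). The F2rl1 ratio exceeded that of 8.75% of loci. The summed level of the epithelial markers was 10949 with EICD against 15095 with GFP alone, which again mostly reflects Krt5 (7993 against 10705 FPKM) and Krt14 (2456 against 3820). In the same list Trp63 was higher, at 78.7 against 62.7, and so was Cdh1, at 156.2 against 147.4. Lower with EICD were Krt8 (70.2 against 142.8, past 2-fold), Krt18 (41.2 against 49.5), Epcam (139.7 against 152.7) and Foxn1 (14.4 against 15.2). The part of these shifts in the members' values was not tested. The library labelled KD_GFP is shared with the comparison before. Among pathway genes, Spink5 (8.46 to 18.8 FPKM), Hgfac, an activator of HGF (0.376 to 1.11), and Mst1, the macrophage-stimulating protein (2.42 to 5.80), passed 2-fold upward with EICD. None of the measured pathway genes passed 2-fold downward. The medians of the 5 lists with measured genes lay between -0.0096 and 0.24.

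Since HAI-1 and HAI-2 act by binding epithin, their levels were also set against St14 within each library. The ratio of Spint1 to St14 was 0.804 in the library labelled CONT, 0.805 in CONT_PMA, 0.823 in KD, 0.882 in KD_PMA and 0.882 in KD_GFP, and the ratio of Spint2 to St14 was 1.61, 1.42, 1.64, 1.29 and 1.77. Both inhibitors together were 2.17-fold to 2.65-fold the level of St14 in these 5 libraries. In the library labelled KD_GFP_N55 the sum was 0.317 of the St14 value, which holds construct reads. These are ratios of RNA per length, not of protein.

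The 2 inhibitors stood in nearly the same proportion in the libraries without PMA. Spint2 was 2.01-fold Spint1 in the library labelled CONT, 2.00-fold in KD, 2.00-fold in KD_GFP and 2.12-fold in KD_GFP_N55, but 1.77-fold in CONT_PMA and 1.46-fold in KD_PMA. The proportion of St14 to Prss8 was 7.57 and 5.14 with DMSO and 12.5 and 10.9 with PMA, and that of F2rl1 to St14 was 1.02 and 0.982 with DMSO and 2.36 and 2.61 with PMA. Both of the latter were higher with PMA in each line.

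**Figure D5:**
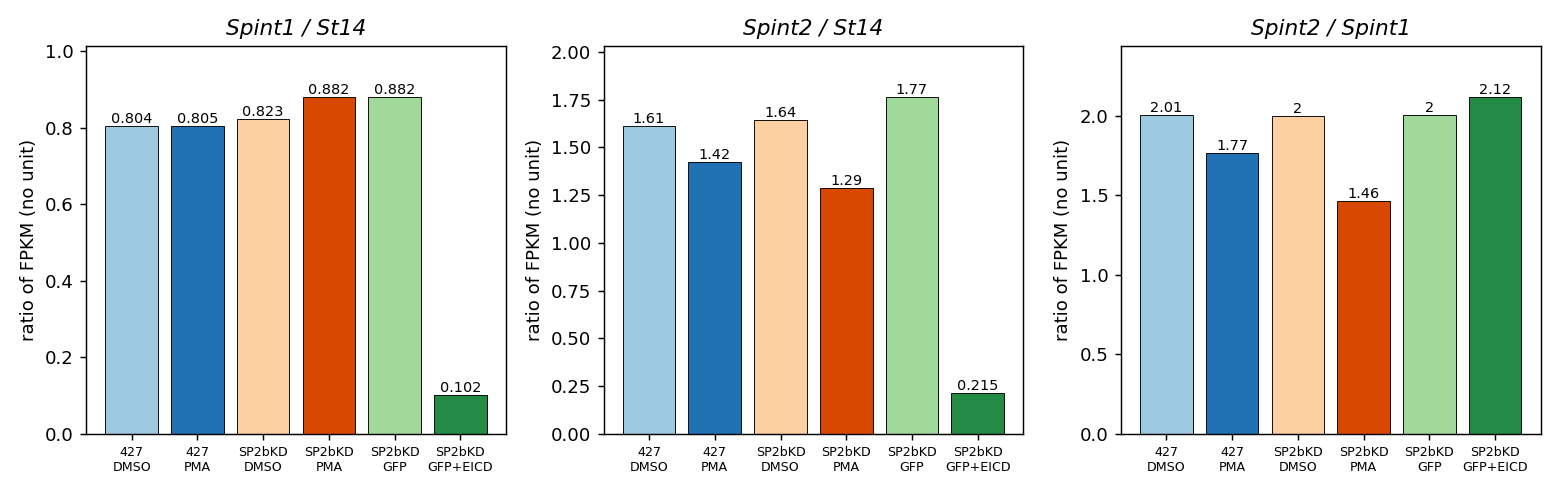
Ratio of FPKM (bars from 0, 1 library each) of Spint1 to St14, Spint2 to St14 and Spint2 to Spint1 in the 6 libraries. Spint2 to Spint1 is 2.00 to 2.12 in the libraries without PMA and 1.77 and 1.46 with PMA, and the ratios to St14 are 0.102 and 0.215 where the construct adds to St14.

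The start regions of the 2 inhibitors are shown with a search for AP-1, a factor known to act in phorbol ester responses. RefSeq (GRCm38.p6) gave a start region for 3 of the 6 members, Spint1, Spint2 and F2r. The AP-1 letters TGANTCA, which read the same on both strands, were searched from 250 bases before the start to 50 after it, and 7.81% of 32851 start regions of that length hold them. The capitals mark the match. Spint1 held 1 match, which begins 6 bases upstream of the start, Spint2 held none, and F2r held 1 that begins 204 bases upstream. The deposited Spint2 locus reaches 29282379 on the minus strand, upstream of the searched region, so the start of that locus was not searched. Whether these letters bear on the PMA ratios was not tested.
Spint1, chr2:119237110-119237369, plus strand: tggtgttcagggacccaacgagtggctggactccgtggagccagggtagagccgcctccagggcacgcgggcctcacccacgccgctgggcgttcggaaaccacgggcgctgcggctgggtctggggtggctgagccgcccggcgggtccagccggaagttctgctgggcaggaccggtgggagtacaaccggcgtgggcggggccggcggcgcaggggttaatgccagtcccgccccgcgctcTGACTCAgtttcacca
Spint2, chr7:29281968-29282227, minus strand: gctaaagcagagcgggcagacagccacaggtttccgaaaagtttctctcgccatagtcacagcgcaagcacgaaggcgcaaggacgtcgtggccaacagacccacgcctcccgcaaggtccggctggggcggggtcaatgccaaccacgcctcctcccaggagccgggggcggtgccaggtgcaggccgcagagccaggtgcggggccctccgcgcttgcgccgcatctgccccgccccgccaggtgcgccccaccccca
Each printed stretch runs from 250 bases before the start to 10 after it. St14, Prss8 and F2rl1 had no entry.

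The genes most like each member over the 6 libraries were taken by the root mean square distance of centred log2(FPKM + 0.1) among 9358 loci. They were Pgam5, Cxadr and Sft2d1 for Spint1, Slfn9, Atp6v1e1 and Dnajc7 for Spint2, Vps72, Hltf and Zfp433 for Prss8, and Serpinb9, Spn and Has2 for F2rl1. The closest gene was at a distance of 0.040 for Spint1, 0.025 for Spint2, 0.067 for Prss8 and 0.11 for F2rl1. For St14 they were Gpt2, Slc7a11 and Ciart over 6 libraries (distance of the closest 0.31), and Utp23, Bard1 and Ttc9 over the 5 libraries without EICD (0.03). The St14 profile over 6 libraries holds construct reads, so Gpt2, Slc7a11 and Ciart need not resemble the gene's own level. With Pearson correlation in place of the distance, 0 of 3 genes were shared for Spint1, Spint2 and Prss8, 2 of 3 for F2rl1, and for St14 0 of 3 over 6 libraries and 1 of 3 over 5.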

How the data were processed

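The authors sequenced paired-end 100-base reads and deposited FPKM values for each library, with coordinates on GRCm38. The study's methods name TopHat and Cufflinks, and the submitters' processing notes list TopHat2 2.1.1, STAR 2.4.0b, Cufflinks 2.1.1 and Cuffdiff 2.1.1. FPKM depends on the assembled gene models (12836 loci with new isoforms, 8948 annotated and 3217 newly assembled), and 22601 loci carry a symbol. Counts were not used here. Whether reads were counted by strand is not given in the sources used here.

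The members and gene lists were chosen with earlier results of these data known, and 1 listed gene is not reported here. Log2 ratios were computed from the deposited FPKM with 0.01 added (to the EICD library alone in the EICD comparison), and loci counted when FPKM was 1 or more in at least 1 library of the pair. A locus more than 2-fold apart was called. Where a listed symbol had more than 1 locus, as Prss22, Spink5 and Sppl3 did, the ENSMUSG-numbered locus with the highest mean FPKM was taken. Every member was named, with up to 5 called genes per list and comparison and the 3 closest patterns per member. No gene-wide test was run, since each condition has 1 library. Depth was estimated from the FPKM of 879 loci with a single transcript of over 2500 bases, and 95% counting intervals from estimated fragments on the longest coding transcript. They cover counting error only. The calls and the depth estimate were tested on simulated data with counting error only and changes well past 2-fold in well-expressed loci. That says nothing about changes near 2-fold, low loci or differences between replicate libraries. Python 3.11.15, NumPy 2.4.6, pandas 2.3.3 and matplotlib 3.10.9 were used. Alternatives were other added amounts, other minima, and upper quartile or median ratio scaling.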

Additional observations from a re-analysis of the deposited data

Results flagged for a closer look

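The following values pointed in opposite directions in 2 settings of the same comparison. None of the differences was tested, because each condition has 1 library. The PMA log2 ratio of Spint2 was 0.12 in 427 cells and -0.06 in the libraries labelled KD, a difference of -0.17. Under median ratio scaling the Spint2 ratio in the libraries labelled KD was 0.09, so this opposition depended on the scaling. Set against 427 cells, the libraries labelled KD had a log2 ratio of -0.03 under DMSO and 0.06 under PMA for Spint1 (difference 0.093). The counting interval of this Spint1 ratio under DMSO, -0.09 to 0.03, spanned 0. For F2rl1 the ratios were -0.12 and 0.07 (difference 0.19). Of the pathway genes, only those named for passing 2-fold in some comparison were scanned. Among these, the PMA log2 ratio was 1.01 in 427 cells and -0.13 in the libraries labelled KD for F3 (difference -1.14). It was 0.04 and -0.21 for Hm13 (difference -0.25), and -0.15 and 0.17 for Tfpi (difference 0.32). Genes outside this scan can also differ in direction. Adam17 went from 35.0 to 33.5 FPKM in 427 cells and from 34.8 to 37.1 in the libraries labelled KD.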

How the results depend on the processing

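The number of members past 2-fold stayed as reported under each alternative but 1. With no minimum FPKM, F2r entered through its single value of 0.0242, and the count went from 1 to 2 for PMA in the libraries labelled KD and from 0 to 1 for the library labelled KD_PMA against CONT_PMA. Of 183 single log2 ratios under other added amounts, minima and scalings, 183 stayed on their side of 2-fold and 180 kept their sign. A minimum decides only whether a member's ratio is counted, so the ratios under other minima could not move and show nothing about stability. The 3 sign changes were Spint2 with PMA in the libraries labelled KD (0.09 under median ratio scaling) and Spint1 with EICD (-0.02 under upper quartile and -0.05 under median ratio scaling). The F2rl1 log2 ratio with PMA ranged from 1.50 to 1.65 in 427 cells and from 1.69 to 1.85 in the libraries labelled KD, and St14 with EICD from 3.07 to 3.14. Summing all loci of a symbol could not alter the ratios of inhibitors to St14, since each has 1 locus. The differences in PMA response between the lines were recomputed only with 0.1 or 1 added to all libraries. They moved by less than their counting error, but such amounts could move members at these levels only a little. The scalings were not applied to these differences. Over all loci, the count past 2-fold depended on the minimum. At a minimum of 1, of 10, with none, and with 1 added, the counts higher and lower were, for PMA in 427 cells, 416 and 497, 241 and 114, 1415 and 1877, and 305 and 189. For PMA in the libraries labelled KD they were 373 and 605, 232 and 197, 1342 and 2018, and 292 and 275 (497 and 395 under median ratio scaling). For KD against CONT they were 333 and 295, 116 and 76, 1515 and 1660, and 197 and 157, and for KD_PMA against CONT_PMA 230 and 289, 52 and 84, 1355 and 1643, and 114 and 161. For KD_GFP against KD they were 380 and 442, 175 and 123, 1951 and 1712, and 246 and 211, and for EICD 382 and 54, 122 and 15, 1303 and 751, and 179 and 19. No paired analysis was possible because the labels carry no replicate numbers. No library could be left out, since each condition has 1.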

Other observations

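Several proteases that shed membrane proteins or cut inside the membrane were expressed in each library. Adam17 stood at 33.5 to 37.5 FPKM and Adam10 at 45.4 to 60.1 over the 6 libraries. Sppl2a, a relative of SPPL2b, stood at 54.5 to 73.0. Sppl3, which cleaves Golgi enzymes, was at 62.4 and 61.2 in the libraries labelled CONT and KD and at 39.9 and 41.7 with PMA. Sppl2c was listed at 0 in all 6.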
